A study of Mus musculus with 4 samples.

Results

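Ribosome biogenesis and nucleolar genes encode the transcription factors, modification particles and assembly factors that make the 2 ribosomal subunits. A list of 44 such mouse genes was followed on 4 Affymetrix 3' expression arrays. Each gene was represented by the brightest of the probe sets annotated to its symbol alone. All 44 had such a probe set and all 44 averaged a log2 value of 6 or more, as did 9185 of the 18193 genes measured in the same way. The cells were C3H10T1/2, an established mouse line that the labels call mesenchymal stem cells. One group of 2 samples was left untreated, with no vehicle named. The other group of 2 samples received 100 ng/ml recombinant human BMP3, a secreted ligand of the TGF-beta superfamily, for 6 hours. The labels give both groups the same standard culture and call the samples biological replicates, without saying whether they were separate cultures, so tests measure the spread between these samples. The comparison asks which transcripts differ after 6 hours of the ligand. It covers 1 cell line, 1 dose and 1 time.

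Ribosomes are made in the nucleolus, where RNA polymerase I transcribes a long precursor of 18S, 5.8S and 28S ribosomal RNA. Small nucleolar RNA-protein particles modify this precursor, box C/D particles adding methyl groups and box H/ACA particles converting uridine to pseudouridine. Large sets of assembly factors then cut the precursor and fold it with ribosomal proteins into the small and the large subunit. The transcription factor Myc is known to increase the expression of many of these genes in growing cells.

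The 4 arrays had median log2 values of 3.31 to 3.40, with 37.7% to 38.6% of probe sets at a value of 6 or more. Of 10 mesenchymal marker genes, 9 were measured and all 9 averaged at least 6, with Vim at 16.31 to 16.47. Their means were higher in BMP3 arrays for 4 and lower for 5, and their summed log2 value was 121.86 and 121.02 in the controls against 122.76 and 121.62 with BMP3. Thy1 (0.73 ± 0.098) and Cd44 (0.64 ± 0.19) had higher values on both BMP3 arrays than on both controls. Pdgfra (-0.73 ± 0.52) stood at 11.94 on BMP3 replicate 2 and at 13.23 or more on the other 3 arrays. Of 10 markers of epithelial, endothelial and blood cells, Epcam was the only one to average at least 6, at 9.37 to 9.63, and Cdh1, Pecam1, Cdh5 and Ptprc stayed between 1.92 and 4.02. The summed log2 value of these 10 was 34.60 and 34.19 in the controls against 34.35 and 34.77 with BMP3. The part of these marker values in the results was not tested.

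Most of the ribosome biogenesis genes had a slightly higher group mean with BMP3. Of 44 genes, 40 had a higher mean in BMP3 arrays and 4 a lower one. The 4 were Npm1, Ncl, Gnl2 and Taf1d. The median log2 difference, BMP3 minus control, was 0.29, a ratio of 1.22, and the differences ran from -0.24 to 0.92. These are group means, and BMP3 replicate 1 by itself was above control replicate 2 for only 19 of 44 genes. Over the 9185 genes averaging at least 6, 53.3% had a higher and 46.7% a lower mean, with a median difference of 0.02 and quartiles of -0.18 and 0.20. In bulk RNA a difference in the number of cells making a transcript and one in the amount per cell cannot be told apart.

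No single gene of the list passed the test. By limma, with p adjusted by Benjamini-Hochberg over the 45037 probe sets, 0 of the 44 had an adjusted p under 0.05 (background 0%). The smallest adjusted p by the brightest probe sets was 0.335, for Ubtf. A dimmer probe set of Noc4l had a smaller one (0.37 ± 0.043, limma adjusted p = 0.283). At an unadjusted p under 0.05, 2 genes were higher (Ubtf and Ddx10) and 2 lower (Ncl and Npm1), against a background of 9.87% and 8.33% of genes averaging at least 6. With a fold of 1.5 or more required as well, the count was 0, against 2.00% higher and 2.83% lower. Both counts differed when BMP3 replicate 1 was left out. Then 19 genes were higher and 0 lower at an unadjusted p under 0.05, against 12.6% and 13.0% of genes averaging at least 6, and 13 were higher with the fold required as well, against 3.68%. The BMP3 group was then 1 array, assumed to vary like the 2 controls. The 2 lower calls were also lost without control replicate 1 or BMP3 replicate 2, and 1 of them without control replicate 2. In the fit to all 4 arrays, the 95% interval of the difference held 0 for 40 of the 44 genes.

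The 2 groups did not overlap at 22 genes. Both BMP3 arrays lay above both control arrays for 19 of 44, or 43.2%, against 26.1% of genes averaging at least 6. Both lay below for 3 of 44, or 6.82%, against 21.7%. A further 21 genes were higher on average with overlapping groups. Leaving out an array can only keep or raise such counts. The count of 19 became 36 without control replicate 2, where 36.1% of genes averaging at least 6 lay apart in that direction, and 40 without BMP3 replicate 1, where 40.6% did. Dropping control replicate 1 (38.1%) or BMP3 replicate 2 (42.8%) left it at 19. The count of 3 became 8 without BMP3 replicate 2, against 32.2%. An exact permutation test of 2 arrays against 2 cannot give a two-sided p below 0.333.

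**Figure D1:**
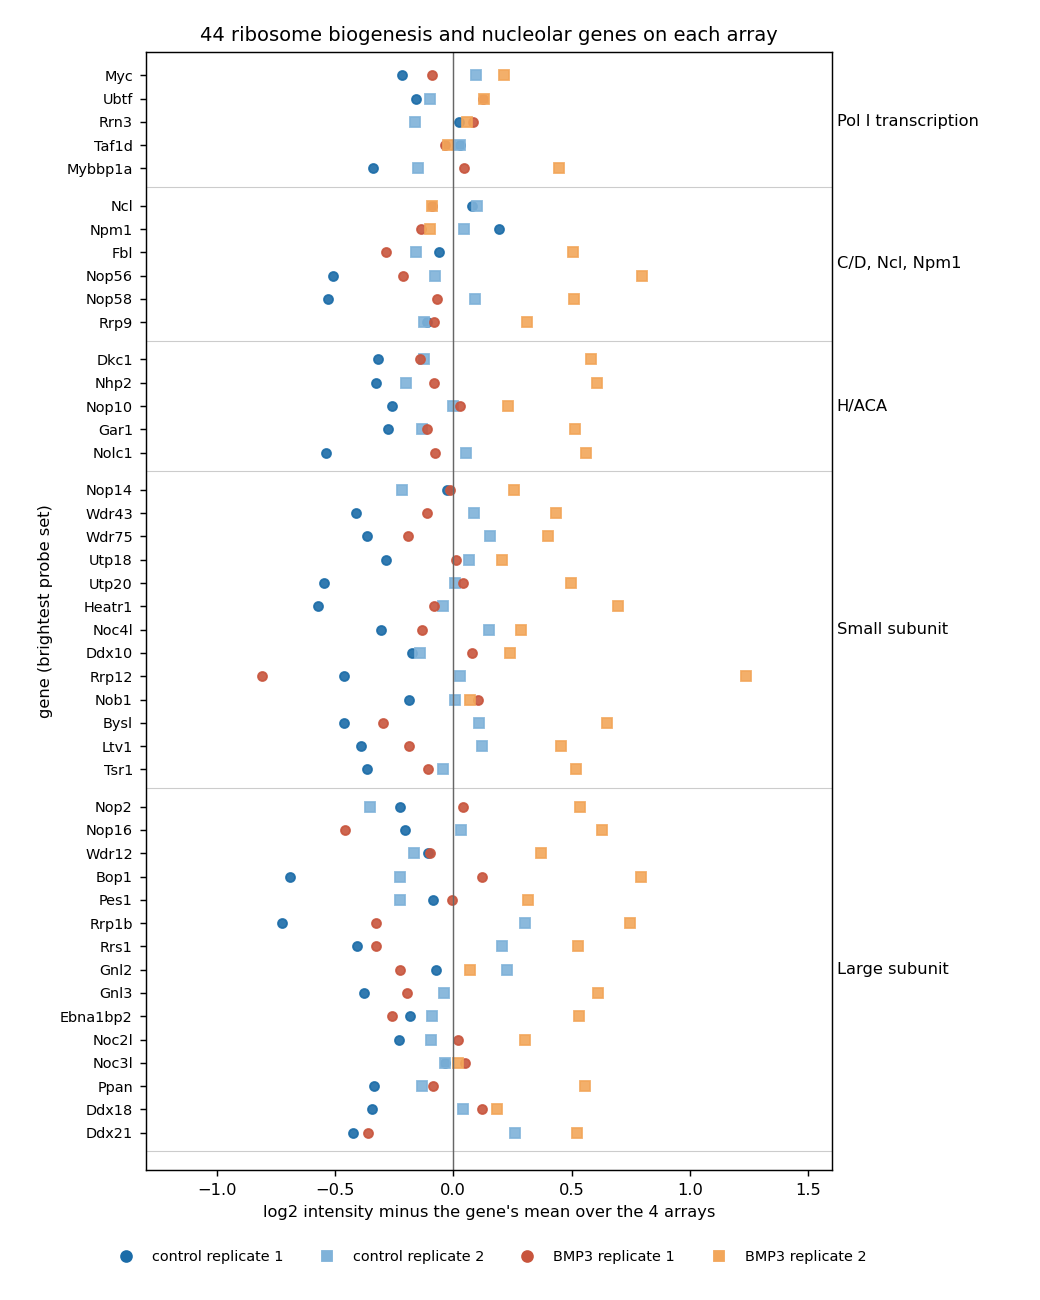
Values of the 44 genes on each array, as the log2 intensity minus the gene's own mean over the 4 arrays (horizontal axis), with genes grouped by role. Circles are replicate 1 and squares replicate 2, blue for control and red or orange for BMP3, and points can lie on top of each other. BMP3 replicate 2 lies farthest right for 37 of 44 genes and control replicate 1 farthest left for 29.

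The arrays were not equally placed within their groups. BMP3 replicate 2 gave the highest value of the 4 arrays for 37 of the 44 genes and the lowest for 0. Control replicate 1 gave the lowest value for 29 and the highest for 1. Over the 9185 genes averaging at least 6, BMP3 replicate 2 was highest for 28.6% and control replicate 1 lowest for 23.2%. The mean level of the 44 genes, each set against its own mean over the 4 arrays, was -0.28 for control replicate 1, -0.02 for control replicate 2, -0.11 for BMP3 replicate 1 and 0.41 for BMP3 replicate 2. BMP3 replicate 1 therefore lay between the 2 control arrays.

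Set array against array, BMP3 replicate 1 was above control replicate 2 for 19 of 44 genes, with a median log2 difference of -0.06. It was above control replicate 1 for 36. BMP3 replicate 2 was above control replicate 1 for 41 genes, with a median of 0.76, and above control replicate 2 for 40, with a median of 0.44. Within groups, BMP3 replicate 2 exceeded BMP3 replicate 1 at 41 genes (median 0.52), and control replicate 2 exceeded control replicate 1 at 35 (median 0.24). Over the 9185 brighter genes these within-group medians were -0.05 and -0.05. The median difference of the 44 genes was 0.08 without BMP3 replicate 2, with 28 genes higher and 12 turned to lower, and 0.60 without BMP3 replicate 1, with 40 higher. Dropping control replicate 1 gave 0.21, and dropping control replicate 2 gave 0.47. The median SD of 2 arrays was 0.17 in control and 0.37 in BMP3, against 0.11 and 0.16 over the brighter genes, and the BMP3 SD was the larger one for 31 of the 44.

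**Figure D2:**
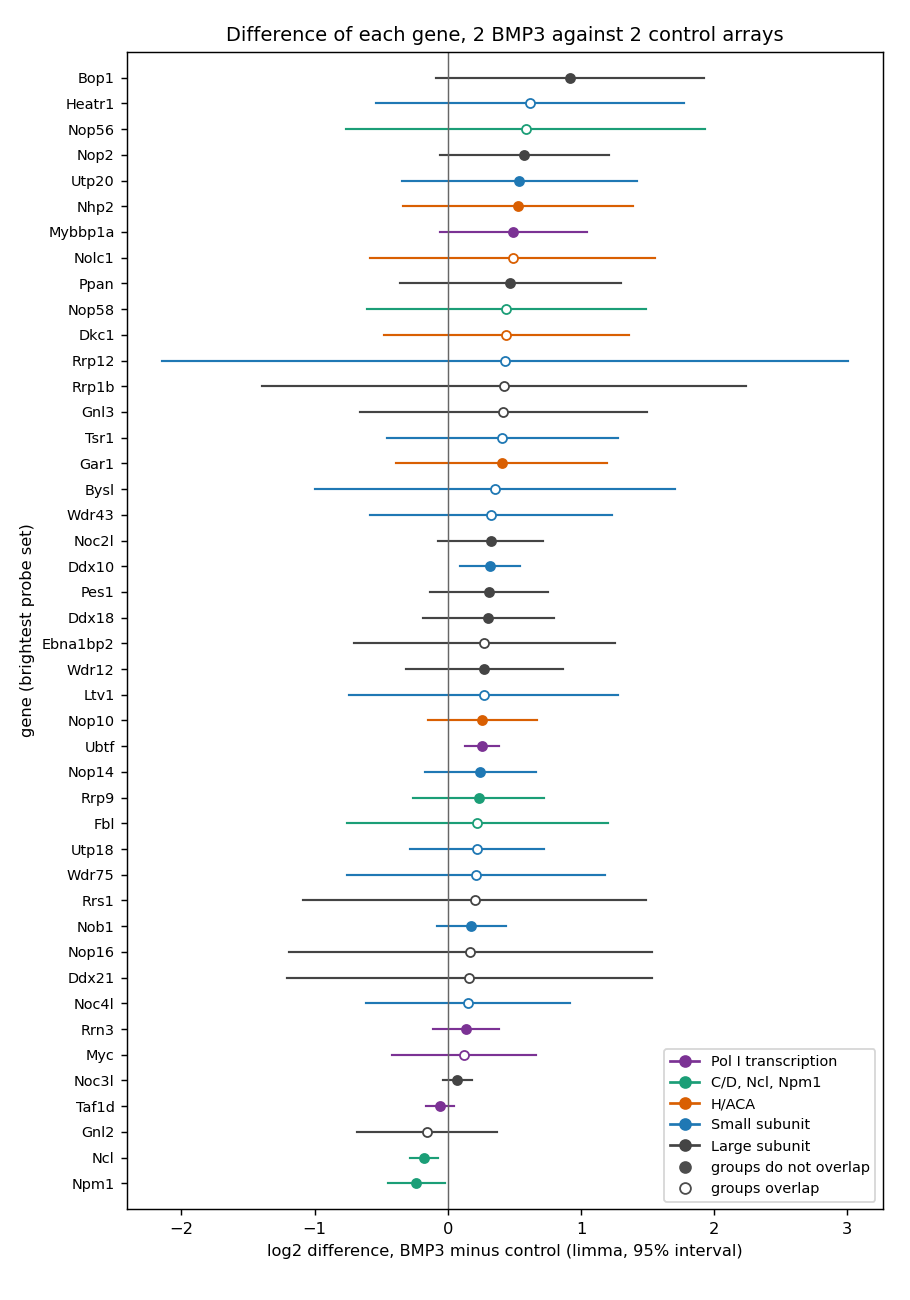
Log2 difference of each of the 44 genes, BMP3 minus control, with the 95% interval from limma (horizontal axis), sorted by size and coloured by role. Filled points mark the 22 genes whose groups do not overlap. The intervals of Ubtf and Ddx10 lie above 0, those of Ncl and Npm1 below 0, and the other 40 hold 0.

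Of 5 genes of RNA polymerase I transcription and its regulation, 4 had a higher mean in BMP3 arrays and the median difference was 0.14. That median was 0.23 when control replicate 1 was left out, 0.28 when control replicate 2 was and 0.26 when BMP3 replicate 1 was. Myc itself had log2 values of 10.77 and 11.08 in the controls against 10.89 and 11.20 with BMP3 (probe set 1424942_a_at). The groups overlapped, and replicate 2 was the higher array in both. Its difference was 0.12 ± 0.18 (SE), with a 95% interval of -0.42 to 0.67, and it turned to -0.03 when either control replicate 1 or BMP3 replicate 2 was left out. Ubtf, which encodes the factor UBF that binds ribosomal DNA and keeps it open for polymerase I, stood at 10.64 and 10.70 in the controls against 10.92 and 10.93 with BMP3. Both BMP3 arrays were higher, by 0.26 ± 0.041 (limma adjusted p = 0.335). A dimmer probe set of Ubtf went the other way, with 7.99 and 8.58 in the controls against 7.74 and 7.69 with BMP3, a difference of -0.57 ± 0.24. The direction for Ubtf thus differed between its 2 probe sets.

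Mybbp1a, a nucleolar protein that binds Myb and takes part in ribosomal RNA processing, had 11.65 and 11.84 in the controls against 12.04 and 12.44 with BMP3. Both BMP3 arrays were above both controls, and the difference was 0.49 ± 0.18. Rrn3, which encodes the initiation factor TIF-IA that recruits polymerase I, differed by 0.14 ± 0.080, also with no overlap. Taf1d, a subunit of the promoter selectivity factor SL1, had values of 11.25 and 11.25 in the controls against 11.18 and 11.20 with BMP3, a difference of -0.060 ± 0.034. Its 6 probe sets averaging at least 6 ran from -0.35 to 0.083, with 4 lower and 2 higher.

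Myc and its partner Max bind the E-box CACGTG, a palindrome that reads the same on both strands. Promoter windows from RefSeq (build GRCm38.p6, 250 bases before to 50 after each start) were at hand for 37 of the 44 genes. Bop1, Fbl, Gnl2, Myc, Npm1, Rrp12 and Rrs1 were not matched. The 6 letters were found in windows of 9 of 37 genes, or 24.3%, against 8.09% of the 27025 gene symbols in the table, which also holds predicted and non-coding genes. By window the shares were 9 of 46 (19.6%) and 7.15% of 32851. Base composition was not matched, and a match is a string of letters, not a bound site. The 30 bases around each match are shown to let the flanks and positions be compared, 5′ to 3′ along the gene's strand with the E-box in capitals.

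Rrn3, first match: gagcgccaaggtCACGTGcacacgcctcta
Rrn3, second match: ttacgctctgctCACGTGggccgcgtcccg
Mybbp1a: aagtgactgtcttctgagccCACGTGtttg
Wdr43: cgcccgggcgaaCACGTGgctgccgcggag
Utp18: gcgagcgccggtCACGTGgcttgcggcggc
Utp20: cccagcggcactaactaCACGTGaggaaaa
Ltv1: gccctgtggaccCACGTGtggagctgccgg
Tsr1: tcacttggtgcaCACGTGgactgcagaatg
Nop2: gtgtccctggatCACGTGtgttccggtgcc
Pes1: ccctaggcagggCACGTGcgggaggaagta

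Counted from the start of transcription, the first base of the match lay at -215 and -48 in Rrn3, -60 in Nop2 and -20 in Utp18. In the other 6 genes it lay just after the start, at 3 in Pes1, 18 in Wdr43, 25 in Tsr1, 29 in Ltv1, 38 in Utp20 and 41 in Mybbp1a. The window of Nop2 is chr6:125131811-125131840 on the plus strand and that of Utp20 chr10:88826765-88826794 on the minus strand. For Rrn3, the gene of the list with more than 1 match, the 250 bases before the start (chr16:13780449-13780698, plus strand) show how far apart the matches are.

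Rrn3 upstream: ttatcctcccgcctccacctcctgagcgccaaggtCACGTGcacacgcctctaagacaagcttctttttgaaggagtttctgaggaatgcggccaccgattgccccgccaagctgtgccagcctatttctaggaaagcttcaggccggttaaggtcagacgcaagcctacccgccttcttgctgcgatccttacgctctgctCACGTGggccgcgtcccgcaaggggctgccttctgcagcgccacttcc

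The genes with the E-box letters had a median log2 difference of 0.32, from 0.14 to 0.58, and all 9 had a higher mean in BMP3 arrays. The 28 genes of the list whose windows lacked the letters had a median of 0.29, from -0.18 to 0.62, with 26 higher. The 2 ranges overlap widely.

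By their brightest probe sets, nucleolin and nucleophosmin, the abundant RNA-binding proteins of the nucleolus, had lower values in BMP3 arrays, unlike most genes of the list. Ncl stood at 14.40 and 14.42 in the controls against 14.23 and 14.23 with BMP3 (probe set 1415771_at), a difference of -0.18 ± 0.034 (limma adjusted p = 0.391). Npm1 had 15.97 and 15.82 in the controls against 15.64 and 15.67 with BMP3, a difference of -0.24 ± 0.069 (limma adjusted p = 0.543). The groups overlapped for neither gene, and the second probe set of Npm1 gave -0.15 ± 0.074. The 4 probe sets of Ncl averaging at least 6 were not alike. Probe set 1415773_at read 12.72 and 12.71 in the controls against 11.26 and 11.76 with BMP3, a difference of -1.20 ± 0.20, while the remaining 2 gave -0.011 and 0.031. Both the size and the sign of the Ncl difference therefore depended on which probe set was read.

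The core proteins of box C/D particles had higher means with wide errors. Fbl, the methyltransferase fibrillarin, had 12.01 and 11.91 in the controls against 11.79 and 12.58 with BMP3. The BMP3 arrays enclosed the controls, and the difference was 0.22 ± 0.32. A dimmer probe set of Fbl had 11.29 and 11.26 in the controls against 11.41 and 11.95 with BMP3. Its difference was 0.40 ± 0.22, with no overlap. Nop56, a scaffold protein of the particle, stood at 10.80 and 11.23 in the controls against 11.10 and 12.11 with BMP3, a difference of 0.59 ± 0.44. Its relative Nop58 had 11.52 and 12.14 in the controls against 11.99 and 12.57 with BMP3, a difference of 0.44 ± 0.34. In both, BMP3 replicate 1 fell between the 2 controls. Rrp9, a protein specific to the U3 particle, differed by 0.23 ± 0.16 with no overlap. The median of these 6 genes, nucleolin and nucleophosmin included, was 0.23, and it was -0.07 with BMP3 replicate 2 left out and 0.52 with BMP3 replicate 1 left out.

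All 5 genes of the box H/ACA set had a higher mean in BMP3 arrays, with a median of 0.44. Nhp2, a core RNA-binding subunit, had 11.46 and 11.59 in the controls against 11.71 and 12.40 with BMP3, a difference of 0.53 ± 0.28. The groups did not overlap, although most of the difference came from BMP3 replicate 2. The same order of arrays was seen for Gar1 (0.41 ± 0.26) and Nop10 (0.26 ± 0.13). Dkc1, which encodes the pseudouridine synthase dyskerin, differed by 0.44 ± 0.30, with BMP3 replicate 1 at 11.27 just under control replicate 2 at 11.29. Nolc1, a chaperone of these particles, stood at 9.31 and 9.90 in the controls against 9.77 and 10.41 with BMP3, a difference of 0.49 ± 0.35. The groups of Nolc1 overlapped, and a dimmer probe set of it gave -0.080 ± 0.66. Dropping BMP3 replicate 2 brought the median of the 5 genes to 0.16, and dropping BMP3 replicate 1 to 0.80. Averaging all probe sets of each gene brought it to 0.25, below the 0.29 of the small and of the large subunit genes by the same rule.

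Each of the 13 small subunit assembly genes had a higher mean in BMP3 arrays, with a median of 0.32 and a range of 0.15 to 0.62. Heatr1, a large protein of the processome that forms on the nascent precursor, had 8.15 and 8.67 in the controls against 8.64 and 9.42 with BMP3, a difference of 0.62 ± 0.37. BMP3 replicate 1 and control replicate 2 were nearly equal. Utp20, another processome protein, had 9.97 and 10.52 in the controls against 10.56 and 11.01 with BMP3, a difference of 0.54 ± 0.29. Its groups did not overlap, by a gap smaller than that between the 2 controls. Ddx10, a DEAD-box helicase, stood at 10.43 and 10.46 in the controls against 10.68 and 10.84 with BMP3. Both BMP3 arrays were clear of both controls, with a difference of 0.32 ± 0.074 (limma adjusted p = 0.452). Its dimmer probe set gave -0.17 ± 0.20.

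Among the other 10 genes of this set, the processome genes Nop14, Wdr43, Wdr75, Utp18 and Noc4l differed by 0.24, 0.32, 0.21, 0.22 and 0.15. By the brightest probe sets, the groups of Nop14 did not overlap and those of the rest did. Noc4l had 4 probe sets averaging at least 6, all higher in BMP3 arrays, by 0.10 to 0.37. Its groups did not overlap at the dimmer probe sets 1423827_s_at (0.37 ± 0.043) and 1423826_at (0.27 ± 0.080). For the genes of later, cytoplasmic maturation, Nob1, the endonuclease that makes the end of 18S ribosomal RNA, differed by 0.18 with no overlap. Bysl, Ltv1 and Tsr1, factors bound to the maturing subunit, differed by 0.35, 0.27 and 0.41, with overlap at the brightest probe sets. A dimmer probe set of Tsr1 gave 0.37 ± 0.21 with no overlap. Rrp12, an export factor, had the widest spread of the list. Its values were 7.14 and 7.63 in the controls against 6.80 and 8.84 with BMP3, so that the BMP3 arrays were at once its lowest and its highest, and the difference of 0.43 ± 0.84 has no settled sign. Dropping BMP3 replicate 2 or control replicate 1 brought the median of the 13 genes to 0.10 or 0.08. Dropping control replicate 2 or BMP3 replicate 1 brought it to 0.52 or 0.59.

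Of 15 large subunit assembly genes, 14 had a higher mean in BMP3 arrays, with a median of 0.31. Both BMP3 arrays lay above both controls for 8, against 26.1% of genes averaging at least 6. That count was 4 of 13 for small subunit assembly, near that share, and 1 of 6 for box C/D with nucleolin and nucleophosmin. It was 3 of 5 for box H/ACA and 3 of 5 for polymerase I transcription. Bop1, Pes1 and Wdr12 encode the 3 proteins of the PeBoW complex, needed to process the precursor of 28S and 5.8S ribosomal RNA. Bop1 had the largest difference of the list by the brightest probe sets on all 4 arrays. Averaged over its probe sets it stood at 0.34, below Nop2 at 0.58, and without BMP3 replicate 1 it stood at 1.25, below Rrp12 at 1.45. Its values by the brightest probe set were 8.43 and 8.89 in the controls against 9.24 and 9.91 with BMP3 (probe set 1423264_at), a difference of 0.92 ± 0.33 with a 95% interval of -0.089 to 1.92 (limma adjusted p = 0.639). Both BMP3 arrays were above both controls, but a second probe set of Bop1, near a log2 value of 6, gave -0.23 ± 0.18. Wdr12 had 9.63 and 9.57 in the controls against 9.64 and 10.11 with BMP3, a difference of 0.27 ± 0.19. BMP3 replicate 1 exceeded the higher control only narrowly, and a dimmer probe set of Wdr12 gave -0.21 ± 0.32. Pes1 differed by 0.31 ± 0.14 with no overlap, and its dimmer probe set by 0.14.

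Nop2, a methyltransferase of the large subunit RNA, had 9.76 and 9.63 in the controls against 10.03 and 10.52 with BMP3, a difference of 0.58 ± 0.21 (limma adjusted p = 0.643). The groups did not overlap, and replicate 2 was the lower of the controls. Ppan, an assembly factor, stood at 9.43 and 9.63 in the controls against 9.68 and 10.32 with BMP3, a difference of 0.47 ± 0.27. Its groups did not overlap, by a narrow gap at BMP3 replicate 1. The groups of Noc2l (0.32), Ddx18 (0.31) and Noc3l (0.071) did not overlap either. For Ddx18, a DEAD-box helicase, a second probe set averaging at least 6 gave 0.35 ± 0.11.

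Gnl2 and Gnl3 encode related nucleolar GTPases. Gnl2 was the one large subunit gene with a lower mean, at 11.76 and 12.06 in the controls against 11.61 and 11.90 with BMP3, a difference of -0.16 ± 0.17 with overlapping groups. Its 3 probe sets averaging at least 6 gave -0.16, 0.35 and -0.19, so that no direction held across them. Gnl3, also called nucleostemin, differed by 0.42 ± 0.35. The remaining genes were Rrp1b (0.42), Ebna1bp2 (0.27), Rrs1 (0.20), Nop16 (0.17) and the helicase gene Ddx21 (0.16). Their groups all overlapped by the brightest probe sets, but a dimmer probe set of Ddx21 gave 0.53 ± 0.30 with no overlap. By the brightest probe sets, each of these 5 genes was lower in BMP3 than in control arrays when BMP3 replicate 2 was left out. The median of the 15 genes was then 0.04. It was 0.63 when BMP3 replicate 1 was dropped instead, and 0.23 or 0.50 when the first or the second control was.

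**Figure D3:**
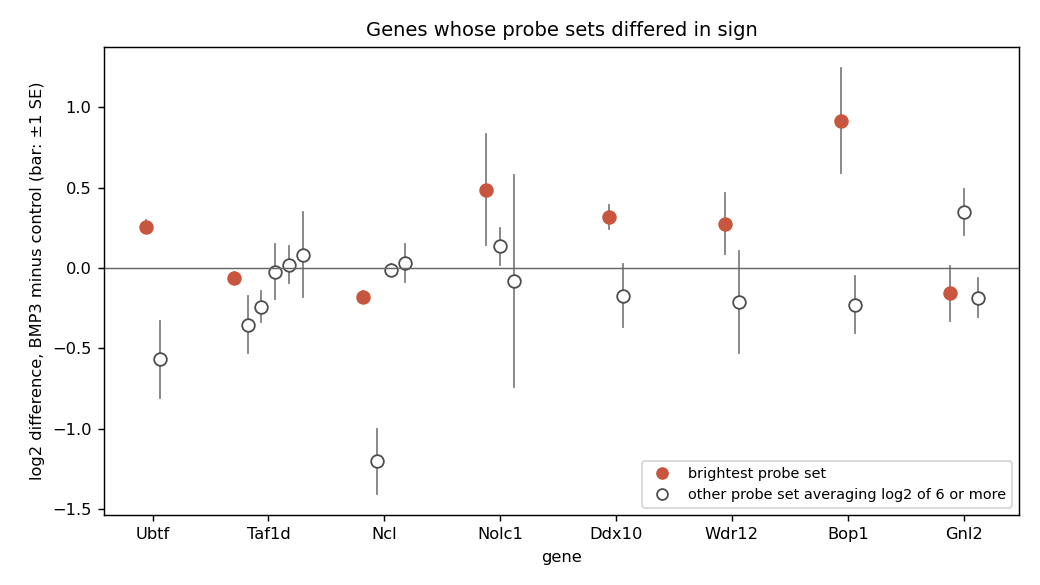
Log2 difference, BMP3 minus control, with a bar of 1 SE either way, for every probe set averaging a log2 value of 6 or more of the 8 genes whose probe sets differed in sign. Filled points are the brightest probe set of each gene and open points the others. Ncl spans -1.20 to 0.031 and Bop1 -0.23 to 0.92.

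The list had 93 probe sets of its own, of which 82 averaged at least 6. Of 26 genes with 2 or more such probe sets, 18 had the same sign in all of them and 8 did not. The 8 were Ubtf, Taf1d, Ncl, Nolc1, Ddx10, Wdr12, Bop1 and Gnl2. Among the 38 brighter probe sets other than the one chosen, 26 had a higher mean with BMP3 and 12 a lower one, and their median was 0.12. The chosen probe sets, at a median of 0.29, thus stood above the other probe sets of the same genes. The mean over all probe sets of a gene, dim ones included, was lower than the chosen value by more than 1.5 times for Bop1 (0.34), Nolc1 (0.18), Ddx10 (0.073), Wdr12 (0.0050), Dkc1 (0.25), Nop10 (0.16) and Utp18 (0.085). It was farther from 0 by more than 1.5 times for Noc3l (0.19), Ddx21 (0.35), Nop16 (0.29) and Taf1d (-0.098), and of the other sign for Ubtf and Gnl2. By that mean 40 of the 44 genes were still higher in BMP3 arrays, with a median of 0.27.

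Other assembly factors, listed for their known roles but with earlier results of these data known, had mostly higher means in BMP3 arrays. They were read on the same 4 arrays, so they are no independent check of the list. Of 35 further small subunit factors, 32 had a higher mean and 3 a lower one, with a median of 0.18. Of 39 further large subunit factors, 34 had a higher and 5 a lower mean, and the median was 0.29. At an unadjusted p under 0.05, 4 of 35 and 8 of 39 were higher and 1 and 0 lower, against 9.87% and 8.33% of genes averaging at least 6, and 0 passed limma's adjusted threshold. The count of 4 is near that share. Utp4, of the processome, had 10.40 and 10.30 in the controls against 10.75 and 10.92 with BMP3, a difference of 0.49 ± 0.086. Senp3, a SUMO protease of the nucleolus, had 11.22 and 11.15 in the controls against 11.73 and 11.66 with BMP3, a difference of 0.51 ± 0.052 (limma adjusted p = 0.259). In both, BMP3 arrays were clear of the controls and replicates lay close together. The acetyltransferase gene Nat10 differed by 0.46 ± 0.096, Nop9 by 0.28 ± 0.072, Pwp2 by 0.54 ± 0.16, Urb1 by 0.36 ± 0.044, Ddx24 by 0.29 ± 0.069 and Rsl24d1 by 0.20 ± 0.046, each with no overlap. These 8 were picked by smallest p, which favours small errors and groups that do not overlap. Over the whole lists, the groups lay apart with BMP3 higher for 17 of 35 and 20 of 39. They lay apart with BMP3 lower for 1 and 3. The shares of genes averaging at least 6 were 26.1% and 21.7%. The medians of the small and large subunit lists were 0.06 and 0.07 when BMP3 replicate 2 was left out, and 0.33 and 0.50 when BMP3 replicate 1 was. Averaging all probe sets of a gene brought the large subunit list to 0.16.

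Genes of ribosomal proteins, the parts that are assembled, had smaller differences. Of 79 listed, 44 had a probe set of their own, and 35 of these had a higher mean, with a median of 0.070. That median depended on the scaling, at 0.027 after quantile normalization, 0.11 after centring on the median and -0.0010 after cyclic loess, so no direction is given for this family. At an unadjusted p under 0.05, 9 of the 44 were higher and 0 lower, against 9.87% and 8.33% of genes averaging at least 6. The groups lay apart with BMP3 higher for 25 and lower for 2, against 26.1% and 21.7%. After cyclic loess 5 were higher and 4 lower at that p, against 8.92% and 9.03%. The groups then lay apart for 18 and 11, against 25.7% and 22.2%. Rps9 (0.19), Rpsa (0.28), Rps26 (0.17) and Fau (0.23) had the smallest p. Many ribosomal protein genes have near-identical pseudogenes that probes may also detect. Of 11 measured genes of the Myc network, 7 had a higher mean and the median was 0.0015. Mga, a Max-binding repressor, had 9.74 and 9.86 in the controls against 9.21 and 9.31 with BMP3, a difference of -0.54 ± 0.070 (limma adjusted p = 0.298). Max itself differed by 0.33 ± 0.17, Mlx by 0.31 ± 0.11 and Mxd4 by 0.12 ± 0.081.

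**Figure D4:**
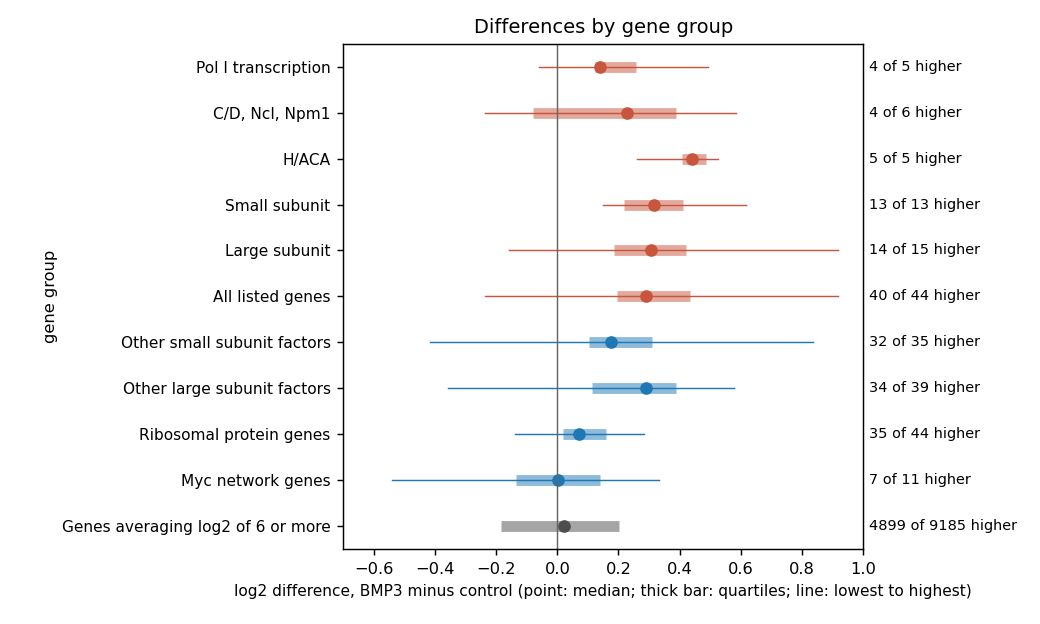
Log2 difference, BMP3 minus control (horizontal axis), for the 5 role groups and all 44 genes (red), the other lists (blue) and the 9185 genes averaging a log2 value of 6 or more (grey). Points are medians, thick bars the quartiles and thin lines the lowest to highest gene, which is left out for the 9185. By these brightest probe sets the box H/ACA set has the highest median, 0.44 (0.25 when probe sets are averaged, below both subunit sets), and the Myc network a median of 0.0015.

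Control probe sets also differed between the groups. The 3 probe sets of 18S ribosomal RNA, an end product of this pathway, averaged 11.41 and 10.50 in the controls against 8.99 and 9.90 with BMP3. Both BMP3 arrays were lower, with a difference of -1.51. This RNA has no poly(A) tail, whereas the labelling kit named by the labels starts from the 3' end of poly(A) RNA. The poly(A) spike-ins, which are added RNAs and not transcripts of the cells, were lower in BMP3 arrays too, with differences from -1.14 for Dap to -0.48 for Thr, and Phe and Lys between them. The spike-ins of the hybridization step read 11.57 and 11.61 in the controls against 11.48 and 11.62 with BMP3. The 18S probe sets and all 4 poly(A) spike-ins were highest on control replicate 1, the array on which 29 of the 44 genes were lowest. Dap was lowest on BMP3 replicate 2, at 8.85, the array on which 37 of the 44 genes were highest, and 18S, Phe and Lys were lowest on BMP3 replicate 1. The part of these differences in the values of the 44 genes was not tested.

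**Figure D5:**
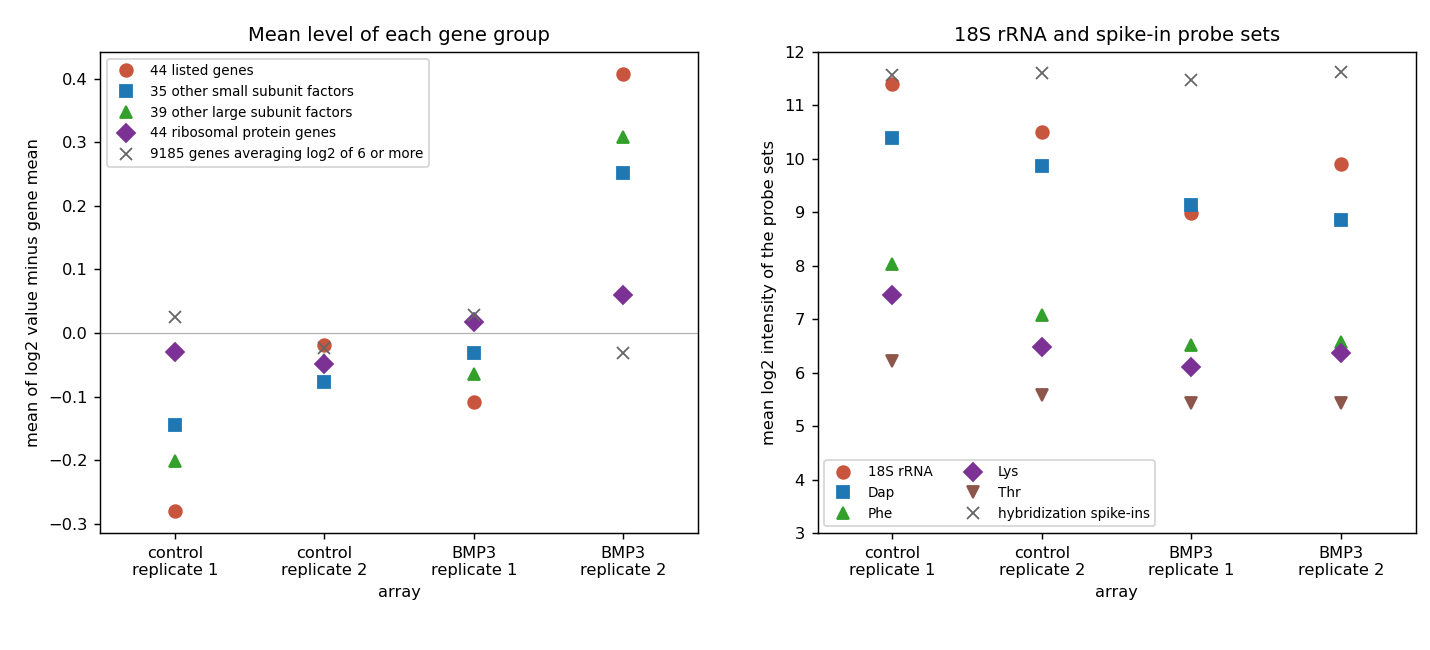
Left, the mean level of each gene group on the 4 arrays, as log2 value minus the gene's own mean (vertical axis). Right, the mean log2 intensity of the 18S ribosomal RNA and spike-in probe sets on the same arrays. The 44 genes run from -0.28 in control replicate 1 to 0.41 in BMP3 replicate 2, and the 9185 brighter genes stay within 0.031 of 0.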

How the data were processed

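Biotin-labelled RNA of 2 control and 2 BMP3 samples was hybridised to 4 arrays, per the labels' protocols. The authors deposited 1 value per probe set and array, read here as log2 intensity. The log2 scale was inferred from the values (0.59 to 16.94), and with another base each difference would change. The submitters' processing notes name Partek, with no version. How background, normalization and probe summary were handled is not given in the sources used here, and a normalization that equalises arrays would hide a shift of most transcripts.

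Groups came from the sample titles. After 64 control probe sets were left out, 45037 entered a two-sided test in limma (version 3.58.1, under R 4.3.3; lmFit, eBayes, no block), with Benjamini-Hochberg adjustment. Of these, 34945 carried 1 symbol, 932 several and 9160 none in the platform annotation. Entrez identifiers matched the symbol for all 44 genes. The fit was tested on simulated data with independent noise. That does not show how it behaves where many genes deviate together on an array, as here.

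The 44 genes and all lists were chosen with earlier results of these data known. Genes given in full are the 10 with the largest differences, Myc, Ncl, Npm1, Fbl and those whose probe sets differed in sign, and from each other list up to 4 of smallest p. Rrp12 was singled out after its values were seen.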

Additional observations from a re-analysis of the deposited data

How the results depend on the processing

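With 2 arrays a group, leaving out single arrays moved the median of the 44 genes more than the scaling did. Quantile normalization, median centring, cyclic loess, adding 16 to linear values before the log, and leaving out dim probe sets each gave 40 of 44 genes higher, with medians of 0.29 to 0.33. Ribosomal protein genes were the exception, at 0.027, 0.11 and -0.0010 under the first 3. Averaging all probe sets of a gene turned Ubtf (-0.16) and Gnl2 (0.0024), and brought box H/ACA to 0.25 and the further large subunit factors to 0.16.

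At the looser threshold (unadjusted p under 0.05, fold at least 1.5), 364 probe sets were higher and 901 lower. With the replicate number as a block these were 683 and 1481. Under the block 3 of the 44 genes (Bop1, Heatr1 and Nop56) passed as higher, against 3.55% of genes averaging at least 6. Without it 0 passed, against 2.00%. At an unadjusted p alone, the block gave 17 of the 44 genes higher and 0 lower, against 16.4% and 15.8% of genes averaging at least 6, and 2 and 2 without it. Other scalings, filters and priors gave 2 to 4 higher and 0 to 3 lower, and averaged probe sets 0 and 1. The labels do not say that a number marks a shared batch. The log2 gaps between replicates 2 and 1 correlated at 0.45 between the groups over all probe sets, 0.60 over those averaging at least 6 and 0.52 over the 44 genes, and 2 pairs cannot establish a pairing. Bop1 also passed under a filter on dim probe sets and under a trended robust prior, 1 gene each. The shares of genes averaging at least 6 that passed as higher were 2.47% with the filter and 2.69% with the prior. That prior let 1 probe set pass limma's adjusted threshold, that of Rarres2 (-1.40).

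Leaving out each array in turn gave 329 to 870 probe sets higher and 742 to 1407 lower at that threshold, and 0 to 13 of the 44 genes. Groups stood apart at 19 to 40 genes higher and 3 to 8 lower, counts that fewer arrays can only keep or raise. Of genes averaging at least 6, 36.1% to 42.8% then stood apart higher and 28.0% to 41.4% lower. The count of 19 without BMP3 replicate 2 is near its share of 42.8%. Medians ran from 0.083 to 0.60 for the 44 genes, 0.15 to 0.28 for polymerase I transcription, -0.070 to 0.52 for box C/D with nucleolin and nucleophosmin, 0.16 to 0.80 for box H/ACA, and 0.040 to 0.63 for large subunit assembly. The further small and large subunit factors ran from 0.059 to 0.33 and from 0.067 to 0.50. Genes that turned direction ranged from -0.034 to 0.28 (Myc), -0.17 to 0.62 (Fbl), -0.085 to 0.50 (Wdr75), -0.078 to 0.38 (Noc4l), -0.59 to 1.45 (Rrp12), -0.12 to 0.83 (Bysl), -0.051 to 0.59 (Ltv1), -0.37 to 0.71 (Nop16), -0.11 to 0.96 (Rrp1b), -0.22 to 0.63 (Rrs1), -0.12 to 0.67 (Ebna1bp2) and -0.28 to 0.60 (Ddx21). The cause was not tested.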
